A study of Schizosaccharomyces pombe with 24 samples.

Results

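The 144 tRNA genes on the chromosome arms of fission yeast, Schizosaccharomyces pombe, are described here as the authors annotated them in the genome used for a study of histone H3 lysine 9 methylation. They were chosen as the gene entries with a tRNA identifier on chromosomes I, II or III that shared no base with an annotated centromere. The annotation held 171 tRNA genes on these chromosomes, the other 27 of them inside a centromere, among 12633 genes of all kinds. Chromosome I carried 50 of the arm genes, chromosome II 59 and chromosome III 35. The amino acid of each gene was read from the 3 letters in its identifier, so SPATRNASER.03 is a serine tRNA gene of chromosome I.

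The study made 24 chromatin immunoprecipitation sequencing (ChIP-seq) libraries with antibodies against dimethylated (9me2) or trimethylated (9me3) lysine 9 of histone H3, the marks of heterochromatin, from cells grown at 32 °C. All strains carried a reporter of 10 tet operators and ade6+. In 14 libraries it replaced ura4 (ura4D::10xteto-ade6+, labelled ectopic), in strains labelled WT, clr4D, swi6D, swi6Dmst2D, swi6Dset1D, swi6Dmst2Dset1D and set1Dmst2D. In 10 libraries it replaced cenH (cenHD::10xteto-ade6+, labelled endogenous), in strains labelled WT, swi6D, swi6Dmst2D, swi6Dset1D and swi6Dmst2Dset1D. In these names D marks a deletion, clr4 encodes the lysine 9 methyltransferase, swi6 an HP1 protein that binds the mark, mst2 a histone acetyltransferase and set1 the lysine 4 methyltransferase. Each strain was used once with each antibody, which gave 24 groups of 1 library. The files analysed here were the annotations of the endogenous and the ectopic reporter genome, which give positions only, with no score in any of their 58359 and 40352 lines, respectively. Methylation levels over the tRNA genes in these strains, and the depth behind them, were therefore not analysed here, and every value below describes the genome with no replicate error. Unless another source is named, positions are those of the endogenous-site annotation.

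tRNAs carry amino acids to the ribosome and read the codons of the mRNA with a triplet called the anticodon. Their genes are short and are transcribed by RNA polymerase III from promoters inside the gene, the A box and the B box, which the factor TFIIIC binds before TFIIIB brings in the polymerase. Transcription ends at a run of T on the coding strand. Some tRNA genes hold a short intron beside the anticodon, which the tRNA splicing endonuclease removes. In fission yeast, tRNA genes lie within and around the centromeres, and those beside pericentromeric heterochromatin are known as barriers to its spread.

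The first set of sequences shows how these genes are built, with 1 intron-bearing member for each amino acid that has any, the first in identifier order. Serine is shown in the next set, and for tyrosine the second gene is shown, since the first overlaps the untranslated end of a protein-coding gene. All were read from the RefSeq genome ASM294v3 by gene identifier and are written 5′ to 3′ on the strand of the gene, and their coordinates are those of ASM294v3. Capitals mark the intron, which sits a base after the anticodon.
SPATRNAALA.06 (chrI:4796977-4797059, + strand): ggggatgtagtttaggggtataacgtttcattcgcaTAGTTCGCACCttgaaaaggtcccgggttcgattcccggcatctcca
SPATRNAARG.01 (chrI:3443055-3443144, + strand): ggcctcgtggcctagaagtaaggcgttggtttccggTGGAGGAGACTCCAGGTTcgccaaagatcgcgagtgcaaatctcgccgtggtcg
SPATRNAILE.02 (chrI:2578426-2578524, + strand): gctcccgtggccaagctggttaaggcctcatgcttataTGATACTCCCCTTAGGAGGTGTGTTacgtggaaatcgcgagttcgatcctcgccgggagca
SPATRNALEU.01 (chrI:1527088-1527181, - strand): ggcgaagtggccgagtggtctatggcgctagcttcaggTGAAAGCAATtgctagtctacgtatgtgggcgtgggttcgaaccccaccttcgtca
SPATRNALYS.01 (chrI:1704582-1704664, + strand): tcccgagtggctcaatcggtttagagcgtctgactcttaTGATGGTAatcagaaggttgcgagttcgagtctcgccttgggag
SPATRNAMET.02 (chrI:1484979-1485061, - strand): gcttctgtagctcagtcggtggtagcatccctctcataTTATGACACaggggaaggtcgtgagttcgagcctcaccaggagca
SPATRNAPRO.02 (chrI:1314924-1315020, - strand): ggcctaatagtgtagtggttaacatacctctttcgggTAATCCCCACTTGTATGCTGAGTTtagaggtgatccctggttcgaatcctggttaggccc
SPBTRNATYR.02 (chrII:1598511-1598594, + strand): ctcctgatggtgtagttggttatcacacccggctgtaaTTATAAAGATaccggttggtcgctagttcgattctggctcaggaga
SPATRNAVAL.03 (chrI:2214733-2214814, - strand): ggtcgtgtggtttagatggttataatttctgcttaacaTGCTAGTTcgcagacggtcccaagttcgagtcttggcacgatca

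Serine provides the next set, in which a serine tRNA gene was followed on the same strand by a methionine tRNA gene. In fission yeast such pairs are known to be transcribed as a dimeric precursor. Capitals mark the serine intron and, further on, the 7 bases between the genes.
SPATRNASER.01 to SPATRNAMET.01 (chrI:1096369-1096545, + strand): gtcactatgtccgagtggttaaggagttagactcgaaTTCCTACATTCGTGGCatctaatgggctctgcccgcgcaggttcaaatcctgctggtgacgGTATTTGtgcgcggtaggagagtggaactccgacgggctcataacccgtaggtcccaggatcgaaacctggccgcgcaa
SPATRNASER.03 to SPATRNAMET.03 (chrI:4265149-4265324, + strand): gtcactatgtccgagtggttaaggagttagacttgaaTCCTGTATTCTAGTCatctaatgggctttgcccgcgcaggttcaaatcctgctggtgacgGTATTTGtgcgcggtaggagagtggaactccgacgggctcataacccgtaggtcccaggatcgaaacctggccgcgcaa
SPCTRNASER.11 to SPCTRNAMET.07 (chrIII:1689713-1689888, + strand): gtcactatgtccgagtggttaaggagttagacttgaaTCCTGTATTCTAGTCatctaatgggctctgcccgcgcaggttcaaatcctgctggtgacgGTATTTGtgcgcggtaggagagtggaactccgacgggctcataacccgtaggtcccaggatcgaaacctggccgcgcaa

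The 4 genes shown next were chosen because their names differed between sources or served to check such a name. Capitals mark the anticodon as the annotated strand gives it.
SPCTRNAASP.05 (chrIII:1068029-1068099, + strand): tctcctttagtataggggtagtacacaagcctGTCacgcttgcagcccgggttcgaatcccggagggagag
SPBTRNAASN.01 (chrII:1597996-1598069, - strand): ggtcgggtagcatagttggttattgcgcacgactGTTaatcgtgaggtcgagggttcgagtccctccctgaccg
SPBTRNAARG.06 (chrII:1602188-1602260, + strand): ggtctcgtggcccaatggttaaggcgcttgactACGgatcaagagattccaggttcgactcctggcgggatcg
SPBTRNAASP.05 (chrII:1602347-1602417, + strand): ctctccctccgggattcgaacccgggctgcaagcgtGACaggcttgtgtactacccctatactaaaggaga

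The last set is a pair of arginine genes without introns, which read the same codon and differ at 1 base, in capitals.
SPBTRNAARG.04 (chrII:326652-326724, - strand): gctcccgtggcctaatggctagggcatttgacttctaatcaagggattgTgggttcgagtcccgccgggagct
SPCTRNAARG.08 (chrIII:578847-578919, + strand): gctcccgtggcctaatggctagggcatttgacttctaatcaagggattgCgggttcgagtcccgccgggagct

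The arm genes covered all 20 amino acids, from 13 genes for serine to 3 each for cysteine, tryptophan and tyrosine. Arginine, glycine and lysine had 11 genes each, leucine 10, proline 9, and alanine, threonine and valine 8 each. Glutamate and methionine had 7, asparagine, aspartate and glutamine 6, isoleucine and phenylalanine 5, and histidine 4. The set was spread unevenly between chromosomes: the 3 cysteine genes were all on chromosome I, which had none for asparagine, glutamine or histidine. Serine, the largest family, had 7 of its 13 genes on chromosome III, the chromosome with the fewest arm genes. All tRNA genes of serine, proline, methionine, asparagine, glutamine, phenylalanine, histidine, cysteine and tryptophan were arm genes. In contrast, 4 of 9 isoleucine, 4 of 12 alanine and 4 of 12 valine genes lay inside centromeres.

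**Figure D1:**
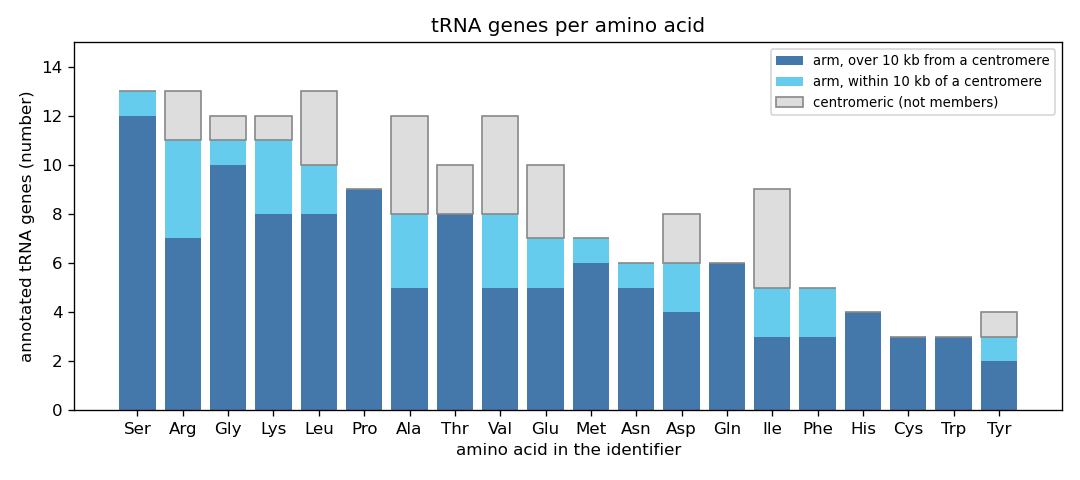
Number of annotated tRNA genes (vertical axis) for each amino acid named in the identifiers (horizontal axis), ordered by arm genes and stacked as arm genes over 10 kb from a centromere, arm genes within 10 kb of one, and the centromeric genes that were left out. Serine is the tallest arm family with 13 genes, and arginine has the most genes within 10 kb of a centromere, 4 of 11.

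Gene number was larger for amino acids that proteins use more. Across the 20 amino acids the number of arm genes and the share of residues in 5127 annotated coding sequences had a Pearson correlation of 0.71 and a Spearman correlation of 0.65. Leucine made up 9.86% of residues and serine 9.43%, against 1.12% for tryptophan and 1.47% for cysteine. With the centromeric genes included, both correlations were 0.81. The points share 1 genome, so these values are given as a description.

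An anticodon could be read for all 144 genes, for 142 of them from the stem and loop of the sequence and for SPBTRNALYS.07 and SPBTRNASER.06 from an identical gene. The largest anticodon families were lysine CTT with 8 genes and glycine GCC, serine AGA and methionine CAT with 7 each. Arginine ACG, asparagine GTT and proline AGG followed with 6 each. At the other end, several anticodons rested on 1 arm gene. Leaving out the GAC of SPBTRNAASP.05, described below with its strand, these were alanine CGC, arginine CCG, CCT and TCG, glycine CCC, isoleucine TAT, leucine CAA, CAG and TAG, proline CGG, serine CGA, threonine CGT and valine CAC. Leucine CAA was the only one of these with centromeric genes besides, 3 of them. The 7 methionine genes fell into 4 initiator genes, which start translation and are so called in the NCBI notes, and 3 others. The initiator genes had no intron and 1 sequence, and each of the 3 others had an intron.

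Identical copies were common. The 144 genes had 69 distinct sequences, introns included, of which 40 occurred once on the arms. The other 104 genes had at least 1 identical arm copy. All counts of identical genes here compare sequences on the annotated strand. SPBTRNAASP.05 was therefore counted as occurring once, although its reverse complement was identical to 5 other arm genes and 2 centromeric ones. Glycine GCC and serine AGA were the largest families, each with 7 identical copies. Of the arm genes, 43 were identical to a gene inside a centromere, and all 27 centromeric genes were identical to an arm gene. Among the 28 arm genes within 10 kb of a centromere, 16 (57.1%) had a centromeric copy, against 27 of 116 (23.3%) farther out. These counts depend on where the centromere edge is annotated. The 7 glycine GCC genes had a centromeric copy only through SPBTRNAGLY.08, 2 bases inside the right edge of centromere II. SPBTRNATYR.02 had one only through SPBTRNATYR.03, 815 bases inside that edge. Short reads cannot be assigned to 1 of several identical genes by the gene sequence itself, and no source used here says how such reads were treated. The arginine pair printed above differed by T50C, with positions counted from 1 at the 5′ end of the gene and SPBTRNAARG.04 given first. Both genes carry the anticodon TCT.

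The identifier, the anticodon and the products given by the sources went together for nearly all members. The anticodon stood for the amino acid of the identifier in 143 of 144 genes, and the NCBI product did so in 141. SPBTRNAASP.05 (II, 1602347 to 1602417, plus strand) differed in both. As annotated it reads GAC, which pairs with a valine codon, and NCBI calls it Asn. The reverse complement of its 71 bases was identical to 5 other arm genes for aspartate, SPCTRNAASP.05 among them. Its sequence on the minus strand is thus that of an aspartate gene with the anticodon GTC. SPCTRNAASP.05 and SPCTRNAASP.08 were also called Asn by NCBI, but read GTC on their annotated strand, whereas the asparagine gene SPBTRNAASN.01 reads GTT.

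The ectopic-site annotation listed 142 of the 144 genes, all with the same length. SPBTRNAASP.05 was not listed there. At the position of SPBTRNAARG.06 (1602188 to 1602260, plus strand) it had a gene called SPBTRNAASP.03 with the product Asp. The sequence there reads ACG, an arginine anticodon. Its product matched the identifier for 138 of the 142 genes. It called SPBTRNAGLY.06 a lysine gene, although the sequence is 1 of the 7 identical glycine GCC copies. It called SPCTRNAASP.05 and SPCTRNAASP.08 asparagine genes, as NCBI did. SPCTRNAVAL.12 had no product there and was the only member marked as a pseudogene, although it is identical to 3 other arm genes for valine.

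Some tRNA genes had other coordinates in each annotation. All 144 genes had the same length and strand in ASM294v3, and 95 had the same coordinates. Beyond the endogenous reporter, 16 genes of chromosome II stood 6539 bases farther right than in ASM294v3, and 33 of the 35 genes of chromosome III stood 1807 bases farther left. Between the deposited annotations the start differed by 6539 bases for the same 16 genes, by 3041 bases for 20 genes of chromosome III and by 1213 bases for 13. Each shift was longer than the gene it moved, so the same coordinates cover no shared base of these 49 genes in the deposited annotations. The nearest tRNA gene to the endogenous reporter was SPBTRNAGLY.09, the only glycine CCC gene, 65.5 kb to the left. At the ectopic site, in that annotation, the glycine gene SPCTRNAGLY.10 lay 1538 bases from the reporter, SPCTRNAGLU.09 23.8 kb and SPCTRNAHIS.03 43.9 kb.

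Arm tRNA genes stood close to centromeres far more often than protein-coding genes did. Within 10 kb of a centromere edge lay 28 arm tRNA genes (19.4%), against 20 of 5113 protein-coding genes of the arms (0.391%). Within 100 kb there were 34 (23.6%), against 262 protein-coding genes (5.12%). The median distance was 763 kb for arm tRNA genes and 1036 kb for protein-coding genes. Most of the difference lay in the innermost genes. Beyond 10 kb, 116 tRNA genes were left with a median of 976 kb, against 1041 kb, and 6 of them (5.17%) lay within 100 kb, against 4.75% of protein-coding genes.

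The 28 innermost genes were not shared evenly between arms. The left side of centromere II had 12, the left side of centromere III 7 and the right side of centromere II 6. The right side of centromere III had 2, the left side of centromere I 1 and its right side none. On the left arm of chromosome I the innermost gene was the phenylalanine gene SPATRNAPHE.02, 1280 bases from the centromere. On the right arm it was the leucine gene SPATRNALEU.04, 269606 bases away. On chromosome II, SPBTRNAASP.05 touched the left edge with 0 bases between them, and SPBTRNALYS.08 lay 296 bases from the right edge. On chromosome III, SPCTRNALEU.11 lay 1659 bases from the left edge and SPCTRNALYS.11 2532 bases from the right. Just inside the edges, and so left out, were SPBTRNAGLY.08 at 2 bases, SPCTRNALYS.10 at 189 and SPBTRNALEU.07 at 564. Among the members, SPBTRNAARG.06 followed SPBTRNAASP.05 at 157 bases. The right edge of centromere II thus ran between SPBTRNAGLY.08 and SPBTRNALYS.08, neighbours in 1 array of tRNA genes.

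Gene density differed between arms. The left arm of chromosome II had 20 genes per Mb, and without the innermost 10 kb 12.6. The left arm of chromosome III went from 16.8 to 10.4 genes per Mb in the same way. The right arm of chromosome I was the sparsest with 9 genes, 5.03 per Mb. The other arms had 10.9 (I left), 9.31 (II right) and 12.9 (III right). Toward the chromosome ends the outermost genes were SPATRNAPRO.01 on the left of chromosome I, 365154 bases from the end of the annotation, and SPATRNASER.04 on its right, at 141305 bases. On chromosome II they were SPBTRNAGLY.03 at 180993 bases and SPBTRNAASN.04 at 329251 bases. On chromosome III they were SPCTRNAHIS.03 at 71399 bases, the closest of all to an end, and SPCTRNAASP.08 at 313405 bases.

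**Figure D2:**
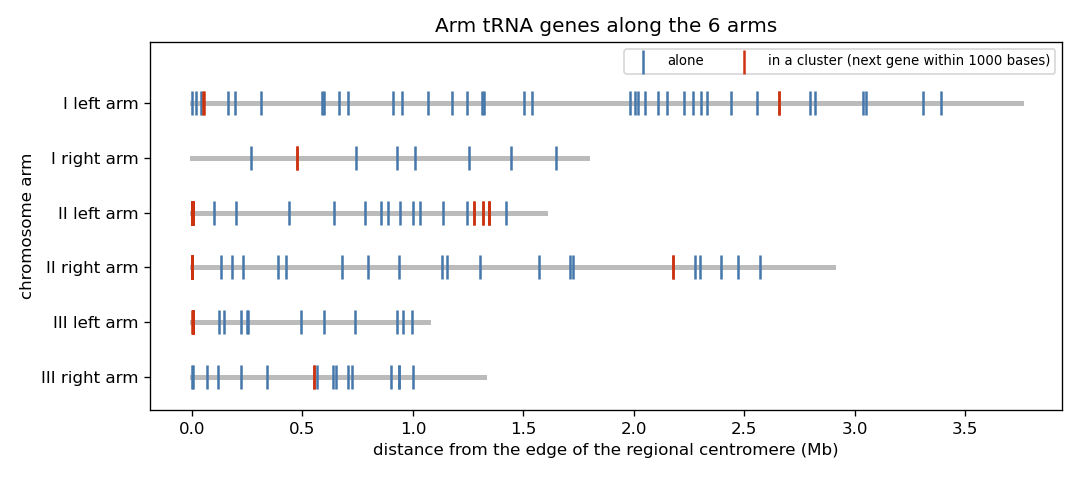
Position of the 144 arm tRNA genes on the 6 arms, as the distance in Mb from the edge of the annotated centromere (horizontal axis), with each arm drawn to scale as a grey line. Red marks are genes with another arm tRNA gene within 1000 bases, which stand at the centromere edge on both arms of chromosome II and on the left arm of chromosome III and in 8 places farther out, while the right arm of chromosome I is empty up to 269606 bases.

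Most arm tRNA genes stood alone. With neighbours at most 1000 bases apart counted as a cluster, 42 genes (29.2%) formed 11 clusters, and 102 stood alone. Of the clustered genes 25 lay within 10 kb of a centromere and 17 beyond. The median gap between neighbours on an arm was 44644 bases over 138 pairs, and 31 gaps (22.5%) were at most 1000 bases. Beyond 10 kb from the centromeres 9 of 110 gaps (8.18%) were that short. Inside the centromeres the share was 14 of 24 (58.3%), with a median gap of 576.0 bases. Gaps between other genes of the arms were not computed, so the clustered share is given as a description.

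The largest cluster bordered centromere II on the left, with 12 genes for 12 amino acids in 4422 bases (1597996 to 1602417). From the outside in it held SPBTRNAASN.01, SPBTRNAMET.05, SPBTRNATYR.02, SPBTRNALEU.06, SPBTRNAGLY.07, SPBTRNALYS.07, SPBTRNAILE.05, SPBTRNAALA.08, SPBTRNAVAL.05, SPBTRNAGLU.06, SPBTRNAARG.06 and SPBTRNAASP.05. As annotated, 5 of these genes were on the plus and 7 on the minus strand, with 5 to 660 bases between neighbours. The right side had 6 genes in 2312 bases (1645044 to 1647355): SPBTRNALYS.08, SPBTRNAILE.08, SPBTRNAALA.11, SPBTRNAVAL.08, SPBTRNAGLU.07 and SPBTRNAARG.07. On the left of centromere III 7 genes spanned 4201 bases (1063237 to 1067437), namely SPCTRNAALA.12, SPCTRNAVAL.12, SPCTRNASER.09, SPCTRNAARG.10, SPCTRNAASP.05, SPCTRNAARG.11 and SPCTRNALEU.11. The only cluster of more than 2 genes away from a centromere held the glutamine genes SPBTRNAGLN.01, SPBTRNAGLN.02 and SPBTRNAGLN.03 in 1466 bases (257454 to 258919). It was also the only cluster of 1 amino acid, and the middle gene, with the anticodon TTG, stood between identical genes with CTG.

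The sides of centromere II carried copies of the same array. The 8 genes from SPBTRNATYR.02 to SPBTRNAGLU.06 on the left recurred in the same order, strands and spacing 45338 bases to the right, and each of the 8 pairs had an identical sequence. Across the 3052 bases from the first to the last of these genes the copies differed at 1 base (99.97% identity), between the lysine and isoleucine genes. Of the right copy, the tyrosine, leucine and glycine genes lay inside the annotated centromere and the other 5 on the arm. The copies are direct repeats, since all strands were the same. Beyond the array stood SPBTRNAASN.01, SPBTRNAMET.05, SPBTRNAARG.06 and SPBTRNAASP.05 on the left and SPBTRNAARG.07 on the right. The arginine genes of both sides had the same sequence but differed in strand and in distance from the array.

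**Figure D3:**
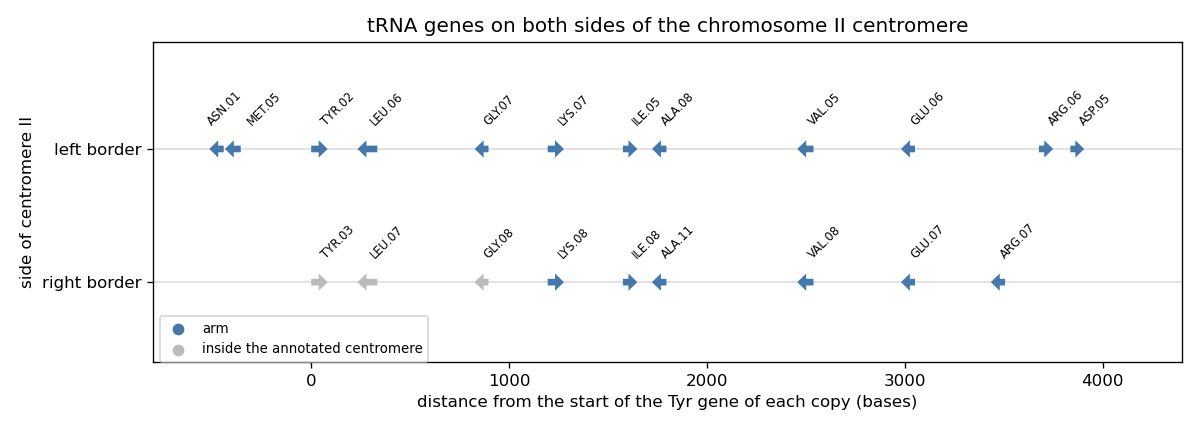
tRNA genes of the left and right borders of centromere II (vertical axis) drawn to scale by distance in bases from the start of the tyrosine gene of each copy (horizontal axis). Arrows follow the annotated strand, also for SPBTRNAASP.05, and the first letters of the identifiers are left off. The 8 genes from tyrosine to glutamate line up in both rows, and the first 3 of the right row are drawn in grey because they lie inside the annotated centromere.

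Smaller units of this array recurred as well. An alanine gene with a valine gene 660 bases away occurred 5 times, as SPBTRNAALA.08 with SPBTRNAVAL.05 and SPBTRNAALA.11 with SPBTRNAVAL.08 beside centromere II, in 2 places inside it, and as SPCTRNAALA.12 with SPCTRNAVAL.12 beside centromere III. Between the genes, 1 centromeric copy was identical to the left arm copy, the other differed at 8 bases, and the copy on chromosome III at 127 of the 660. The alanine gene also had an isoleucine gene at 73 bases in 4 places, all on chromosome II, with no difference between the spacers. On chromosome III, SPCTRNAARG.11 and SPCTRNAASP.05 stood 82 bases apart on the arm, and 2 pairs of the same gene sequences inside the centromere stood 87 bases apart.

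The closest neighbours of all were 4 pairs with 5 or 7 bases between them. In 3 of them a serine gene preceded an initiator methionine gene by 7 bases, as SPATRNASER.01 with SPATRNAMET.01 (I, 1096369 to 1096545), SPATRNASER.03 with SPATRNAMET.03 (I, 4265149 to 4265324) and SPCTRNASER.11 with SPCTRNAMET.07 (III, 1687906 to 1688081). SPATRNASER.03 and SPCTRNASER.11 are named sup3 and sup9, after mutations that suppress nonsense codons. The sequences printed above share the methionine gene and the spacer without a difference. With introns removed and positions counted from 1 at the 5′ end, SPATRNASER.01 and SPATRNASER.03 differed by C34T and C50T, and SPATRNASER.01 and SPCTRNASER.11 by C34T alone. Position 34 is the first base of the anticodon, so the first serine gene reads CGA and the other two read TGA. The fourth initiator gene, SPBTRNAMET.06, had no tRNA gene within 1000 bases. The fourth close pair was SPBTRNAMET.05 and SPBTRNAASN.01, on the minus strand of the array beside centromere II, 5 bases apart with the methionine gene first.

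The promoter and the terminator were searched as letters in ASM294v3. GTTCGANTC, a common form of the B box, was found on the coding strand of 90 arm genes (62.5%) and 17 of 27 centromeric genes (63%). Of 157147 windows of 80 bases tiled over the plus strand of the 3 chromosomes, tRNA genes included, 0.0891% held it. The looser form GNTCNANNC, which includes the first, was in 137 arm genes (95.1%), 23 centromeric genes (85.2%) and 3.71% of windows. SPBTRNAASP.05, read on its annotated strand, was among the 33 genes without the core GTTCG. A run of 4 or more T within 50 bases after the gene was present for 140 arm genes (97.2%) and all 27 centromeric genes, against 39% of windows of 50 bases. It began a median of 3.0 bases after the gene and was a median of 5.0 T long. The 4 genes without such a run were SPATRNASER.01, SPATRNASER.03, SPCTRNASER.11 and SPBTRNAMET.05, the upstream genes of the 4 close pairs.

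Introns were annotated in 35 arm genes (24.3%), 1 in each, and in 9 of 27 centromeric genes (33.3%). They were 7 to 30 bases long with a median of 10.0, and 11 of them had 8 bases or fewer. The 30-base intron was in the arginine gene SPBTRNAARG.05 (II, 1160893 to 1160994), the longest gene of the set at 102 bases. It was followed by 25 bases in the isoleucine gene SPATRNAILE.02 and 24 in the proline gene SPATRNAPRO.02, both shown above. The shortest, of 7 bases, were in the methionine genes SPBTRNAMET.04 and SPBTRNAMET.05 and the lysine gene SPBTRNALYS.07.

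Within most amino acids, whether a gene had an intron went with its anticodon. All 8 lysine CTT genes had one and none of the 3 lysine TTT genes did. All 5 valine AAC genes had one, and none of the 3 valine CAC and TAC genes. Serine introns were in all 6 genes that read CGA, GCT or TGA and in none of the 7 that read AGA, and leucine introns in all 5 genes with anticodons other than AAG and in none of the 5 AAG genes. Tyrosine was the only amino acid with an intron in every arm gene, 3 of 3. The intron-bearing genes of alanine, isoleucine and proline, 1 each, and both of arginine were the only arm genes of their anticodons. Methionine was the exception, since its 3 intron-bearing and 4 intronless genes share CAT. The remaining amino acids had none. In 34 of the 35 genes a single base lay between the anticodon and the intron.

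Genes with the same mature sequence could carry different introns. The 35 introns had 26 distinct sequences as annotated, a count that includes differing annotated ends in identical genes, given below. The 5 valine AAC genes had 1 spliced sequence with introns of 8 or 9 bases, and the 3 tyrosine genes had 2 spliced sequences and 3 different introns. In 5 genes the annotated intron differed although the gene sequence was the same. SPBTRNALYS.07 was given an intron of 7 bases and its identical copy SPBTRNALYS.08 one of 8. SPBTRNASER.06 was given 9 bases after base 41, whereas SPCTRNASER.10 and SPCTRNASER.13 were given 11 bases after base 39. SPBTRNASER.06 was also the exception in its distance to the anticodon. The ectopic-site annotation showed introns for 28 of the 35 genes, for 17 of them as a gap between joined exons, and lacked those of SPATRNALEU.01, SPATRNALYS.05, SPATRNATYR.01, SPATRNAVAL.04, SPBTRNAMET.04, SPBTRNASER.06 and SPCTRNASER.11.

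**Figure D4:**
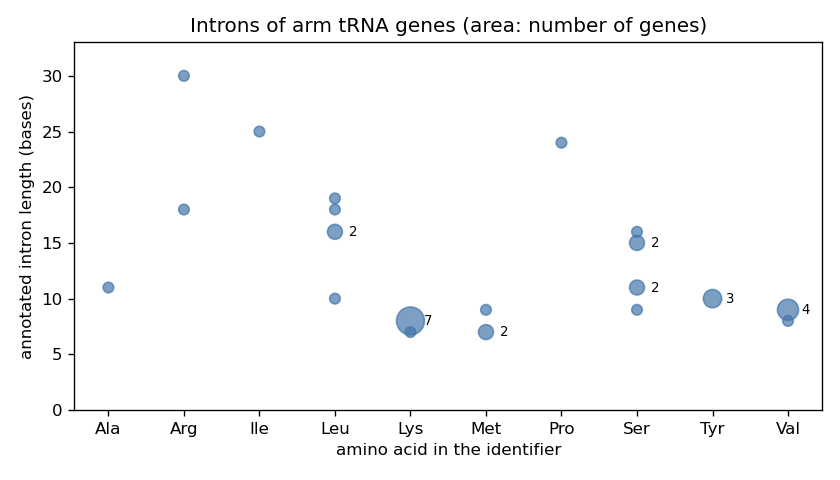
Annotated intron length in bases (vertical axis) of the 35 arm tRNA genes with an intron, by amino acid (horizontal axis), with the area of a point giving the number of genes and that number printed where it is above 1. Lysine introns sit at 7 and 8 bases, tyrosine introns at 10, and the longest is the arginine intron of 30 bases.

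Long terminal repeats (LTRs), the ends that retrotransposons leave behind, lay within 1000 bases of a slightly smaller share of arm tRNA genes than of other arm genes. In budding yeast, Ty1 and Ty3 elements are known to insert upstream of tRNA genes, whereas the Tf elements of fission yeast are known to favour promoters of RNA polymerase II. An LTR lay within 1000 bases of 7 arm tRNA genes (4.86%), against 6.71% of the 5113 protein-coding genes, 5.9% of lncRNA genes and 6.28% of all other genes of the arms. Of all arm bases, 4.05% were that close to one. Beyond 10 kb from the centromeres it was 7 of 116 (6.03%), so the count of 7 is near the background at this window. Within 2000 bases the count was still 7 (4.86%, or 6.03% beyond 10 kb). The shares there were 9.25% of protein-coding genes and 8.89% of all other genes of the arms. The median distance to the nearest LTR was 34.7 kb for tRNA genes and 25.1 kb for protein-coding genes. The tRNA median includes the 28 genes within 10 kb of a centromere, whose nearest LTRs lay 33985 to 165910 bases away. A median without these genes was not computed. The 238 LTRs were all on the arms.

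The closest LTR, SPLTRA.16 (I, 446075 to 446342, plus strand), began 3 bases after the valine gene SPATRNAVAL.01 (446000 to 446071, plus strand), the only CAC gene. SPLTRA.90 lay 289 bases beyond the 3′ end of the threonine gene SPATRNATHR.05. SPLTRC.33 lay 327 bases and SPLTRB.27 408 bases upstream of the 5′ ends of the valine gene SPCTRNAVAL.11 and the proline gene SPBTRNAPRO.04. SPATRNATHR.03 had SPLTRA.42 at 582 bases on its 3′ side. The other two were SPCTRNAGLY.10 with SPLTRC.7 at 595 bases and SPCTRNAGLN.05 with SPLTRC.50 at 746 bases, both on the 5′ side. The 4 upstream LTRs within 1000 bases were all on the opposite strand to the tRNA gene, too few to read as a rule. The next gene, SPCTRNAGLY.12, had its nearest LTR at 3365 bases. None of the 42 clustered genes, 25 of them within 10 kb of a centromere, was within 1000 bases of an LTR. The share over all other genes of the arms was 6.28%, and this count is not read as a trait of clusters.

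**Figure D5:**
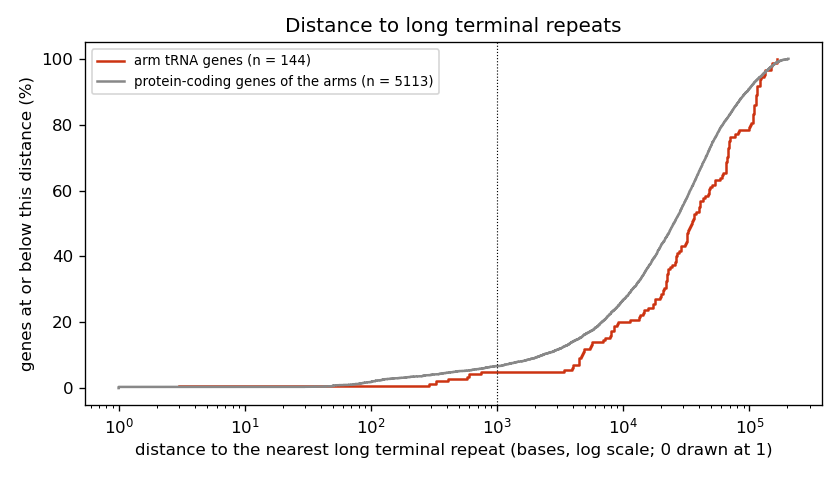
Cumulative share of genes in percent (vertical axis) by distance to the nearest LTR in bases on a log axis (horizontal axis, 0 drawn at 1), for the 144 arm tRNA genes in red and the 5113 protein-coding genes of the arms in grey. At 1000 bases, the dotted line, the red curve is at 4.86% and the grey one at 6.71%. The red curve stays to the right through most of its length, with a median of 34.7 kb against 25.1 kb. It includes the 28 genes within 10 kb of a centromere, each at least 33985 bases from an LTR.

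Long non-coding RNA (lncRNA) genes overlapped 22 arm tRNA genes (15.3%), against 76.6% of protein-coding genes. All 22 were on the opposite strand, and none was on the same strand. Of protein-coding genes, 75.5% had an lncRNA gene on the opposite strand and 3.89% had one on the same strand. By bases, 13.1% of tRNA gene sequence lay inside an lncRNA gene, against 47.6% of the arms. Overlapped genes included SPATRNASER.01 with SPATRNAMET.01 (SPNCRNA.2479) and SPCTRNASER.11 with SPCTRNAMET.07 (SPNCRNA.7463), where 1 antisense lncRNA gene overlapped both genes of the pair. SPCTRNALYS.11 (SPNCRNA.7233), the innermost gene on the right of centromere III, was also overlapped. The only overlap with a protein-coding gene was that of SPATRNATYR.01 (I, 1746464 to 1746547, plus strand), which shared 80 bases with the annotated 3′ untranslated region (1746468 to 1746917, minus strand) of SPAC105.03c. SPBTRNAGLU.08, which SPNCRNA.1669 also overlapped, lay inside an annotated low-complexity region (4111989 to 4118039). The nearest protein-coding gene was a median of 444.0 bases away, and 116 tRNA genes had one within 1000 bases. The farthest was SPBTRNAASP.05 at 5602 bases, at the edge of centromere II. The same distances were not computed for other genes of the arms, so they are not read as a trait of tRNA genes.

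None of the listed genes of the RNA polymerase III pathway was a close neighbour of an arm tRNA gene. Of 22 listed genes, all found by name, 0 lay within 10 kb of an arm tRNA gene, whereas 19.1% of protein-coding genes of the arms did. The list held 6 TFIIIC genes (sfc1, sfc3, sfc4, sfc6, sfc7, sfc9), the TFIIIB genes brf1, bdp1 and tbp1, 7 polymerase subunits (rpc1, rpc2, rpc25, rpc31, rpc34, rpc53, rpc11), 4 splicing endonuclease genes (sen2, sen15, sen34, sen54), sla1 for the La protein and maf1 for the repressor of the polymerase. The closest was sfc3, 13.1 kb from SPBTRNALEU.08, followed by rpc25 at 14.5 kb, rpc2 at 16.7 kb and sen54 at 17 kb. The median was 40.8 kb, against 35.9 kb for protein-coding genes.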

How the data were processed

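The authors deposited 2 genome annotations for 24 ChIP-seq libraries, and their values are starts and ends in bases counted from 1. Neither file gives a read count, signal or score, and per-library depth is unknown here. Trimmomatic and BWA are named in the submitters' processing notes, with no version. No source used here gives the alignment build. The annotations were called endogenous-site and ectopic-site after their reporter feature, because the labels link neither file to a strain.

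Libraries were grouped by site, genotype and antibody from their titles, which gave 24 groups of 1, and no test between groups was made. The members and lists were chosen with earlier results of these data known. Genes were matched by identifier to ASM294v3, from which sequences were read, and no coordinate was converted. Protein-coding genes had an mRNA. Introns are gaps between the annotated exons of a tRNA. Anticodons were read from a loop of 7 bases closed by at least 4 pairs. Named were members of clusters of 3 or more, those nearest to centromeres, chromosome ends, reporters and LTRs, those with the longest and shortest introns, overlapped or conflicting entries, and 22 pathway genes. Close pairs, recurring units, anticodon families, terminators and the single-gene anticodons were named after their values were seen. Clustering distance, LTR window and side, centromere distance, intron source and annotation were varied. Leaving out genes within 10 kb of a centromere, introns of the ectopic-site annotation and the looser B box were chosen after seeing the data. The work used matplotlib 3.10.9, scipy 1.17.1, numpy 2.4.6 and Python 3.11.15. The cluster, distance and anticodon steps were tested on simulated data.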

Additional observations from a re-analysis of the deposited data

How the results depend on the processing

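Of 28 alternatives, 20 kept the value of the result, 8 moved it and 0 reversed it, where counts and distances carry no direction. Counts within 1.5 times the reported one, and equal distances, were taken as kept. Without the genes within 10 kb of a centromere, chosen after seeing the data, the genes in clusters fell from 42 to 17 and the median distance to the centromere rose from 763 to 976 kb. That median was 938 kb with each cluster counted once and 788 kb to the centromere midpoint. Genes with an LTR nearby numbered 4 within 500 bases, 17 within 5000 bases and 4 on the 5′ side only, against 7. These alternatives, other than the midpoint, use fewer genes or another window. At 500, 2000 and 5000 bases the shares of protein-coding genes were 5.16%, 9.25% and 16.4%, against 2.78%, 4.86% and 11.8% of arm tRNA genes. Genes with an intron numbered 35 from exon gaps, intron entries and NCBI exons. In the ectopic-site annotation, added after seeing the data, they numbered 17 from exon joins and 28 with intron entries. The counts of genes and clusters stayed within the limit, as did 36 to 48 clustered genes at 500 to 5000 bases. No paired analysis was possible because the files hold positions, with no value for any library to pair. Read depth is unknown and bears on no value given.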
